A study of Mus musculus with 19 samples.

Results

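Gene expression in the plantaris tendon of Scx- mice on day 7 of a growth stimulus was set against that of Control mice. The comparison took 4 libraries labelled Scx- day 7 and 3 labelled Control, 7 of the 19 RNA sequencing libraries of the study, and ran across all 16625 genes that passed a filter on low values. Both groups were chosen by their labels alone. The Scx- mice, whose name denotes loss of scleraxis (Scx), had been given tamoxifen and had been stimulated for 7 days. The Control mice were Scx+, had been given no tamoxifen and had not been stimulated. Stimulus, tamoxifen and genotype therefore change together between these groups and cannot be told apart, since no unstimulated Scx- group was included. The alleles, the driver of any recombinase, the kind of stimulus, the strain, sex and age are not given in the labels. Nor do the labels state that libraries of a group came from separate animals, so each p-value measures the spread between samples.

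Scleraxis is a transcription factor of the tendon lineage, needed in mouse embryos for force-transmitting tendons to form, and the genes for tenomodulin and type I collagen are among its known targets. Tendon is a sparse tissue of fibroblasts between parallel collagen fibrils, wrapped in a sheath that holds progenitor cells and vessels. When a tendon is loaded in adult mice, cells divide, macrophages gather and new matrix is laid down outside the old fibrils before it matures. The plantaris tendon continues into the plantaris muscle, so muscle tissue lies next to any tendon sample.

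The targeted gene was low in every Scx- library. Scx (chromosome 15, 76457452 to 76459458, plus strand, GRCm38) had a rescaled signal of 17.2, 9.0005, 8.92 and 5.71 in Scx- day 7 replicates 1 to 4, against 593, 442 and 319 in Control replicates 1 to 3. Rescaled signal is the authors' scaled value per gene, rescaled between libraries by medians of ratios, and it is not corrected for gene length. The mean was 10.2 ± 4.91 in Scx- and 451 ± 137 in Control (SD, n = 4 and 3), a 44.2-fold lower level that did not overlap between the groups (two-sided exact permutation p = 0.0571, the smallest that 4 against 3 libraries can give). On the log2 scale used for all genes, Scx fell by 5.25 ± 0.42 (SE; adjusted p = 5.59e-08).

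The libraries separated by group, and their makeup differed. The first principal component held 67.7% of the variance and put the Scx- libraries at 79.7 to 134 and the Control libraries at -144 to -121, with Scx- replicate 4 farthest out. The deposited signal summed, in units of 1e6, to 41.4 to 46.2 in Scx- and 67.8 to 79.8 in Control, and the number of reads behind it is unknown. Markers of skeletal muscle fibres (38 genes) took 3.28%, 4.90%, 8.19% and 0.529% of the signal in the Scx- libraries, against 29.2%, 34.95% and 30.3% in the Control libraries. The samples labelled as tendon thus held muscle transcripts in every library, many more of them in Control, and fewest in Scx- replicate 4. Tendon lineage genes took 1.196% to 1.679% of the signal in Scx- and 0.846%, 0.298% and 0.266% in Control, where replicate 1 was the highest. Whether a lower or higher signal came from the mix of tissues and cells or from RNA per cell cannot be told apart in such bulk tissue. This holds for the rises of matrix genes below as well.

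**Figure D1:**
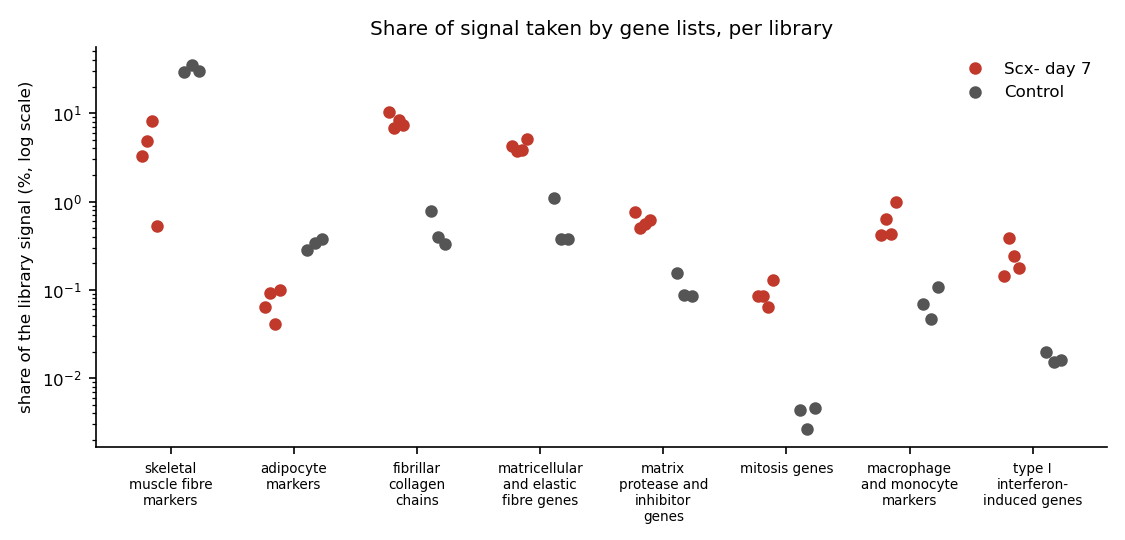
Share of each library's deposited signal taken by 8 gene lists, in percent on a log axis, with 1 point per library (4 Scx- day 7 libraries in red on the left of each pair, 3 Control libraries in grey on the right). Muscle and adipocyte markers lie lower in every Scx- library, and the other lists higher, with mitosis genes at 0.0636% to 0.129% in Scx- and 0.00266% to 0.00462% in Control.

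More than every second gene passed. Of 16625 genes, 9677 (58.2%) had an adjusted p under 0.05 by limma, 5373 of them higher in Scx- (32.3% of all genes) and 4304 lower (25.9%). In 5121 genes (30.8%) all Scx- libraries lay above all Control libraries, and in 4541 (27.3%) all lay below. The balance of directions rests on the scaling: 55.5% of the passed genes were higher after medians of ratios, 51.7% on the scale as deposited and 81.9% when libraries were scaled to equal totals (8959 higher and 1974 lower of 10933). Scaling to totals moved the median log2 fold change of all genes to 0.81, against 0.14 after medians of ratios. With the mean of the muscle list in the model as a covariate, 8313 genes (50.0%) passed. The muscle share did not overlap between the groups, so values from this fit cannot separate muscle content from group for any gene. The authors' deposited table for the same contrast has 9110 of 15951 genes under an adjusted p of 0.05, 4953 higher and 4157 lower. Counts of list members below are read against these shares.

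The 12 largest rises, counted among genes whose mean share was 5 ppm or more, included genes known from interferon responses and leukocytes, from growing matrix, and from slow or developing muscle. Oas3 (chromosome 5, 120753098 to 120777661, minus strand), which encodes an interferon-induced sensor of double-stranded RNA, had 630, 3155, 1889 and 898 in Scx- against 1.78, 2.25 and 1.56 in Control, and rose by 8.46 ± 0.58 (log2 fold change ± SE; adjusted p = 1.11e-08). Slfn1, a Schlafen gene of lymphoid and myeloid cells, rose by 8.20 ± 0.49, Ms4a4c, a membrane protein gene of monocytes, by 7.94 ± 0.61 and the interferon-induced gene Ifi209 by 7.63 ± 0.63. Fbn2, which encodes fibrillin-2 of elastic fibres, rose by 8.02 ± 0.48, and Tnn, which encodes tenascin-W, by 7.65 ± 0.52. The slow troponin genes Tnni1 and Tnnc1 rose by 8.12 ± 1.27 and 7.64 ± 1.23, and Chrng, which encodes the fetal subunit of the muscle acetylcholine receptor, by 7.70 ± 1.33. A further 3 of the 12 were listed at 0 in all Control libraries, so no fold is given. The myeloid receptor gene Cd300ld5 had 870, 1231, 735 and 2015 in Scx-, the paired receptor gene Pira4 213, 617, 400 and 1020, and the TGF-beta family ligand gene Gdf3 199, 312, 487 and 1026. Pira4 was uneven in other groups of the study, with 284, 228, 0 and 0 in Scx+ at day 7 and 0, 518, 203 and 253 in Scx- at day 14. How its reads were assigned is not known.

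The 12 largest falls included genes known from mature fast muscle and a pair of cartilage-type matrix genes. Odf3l2 (chromosome 10, 79639526 to 79645738) had 3.45, 15.7, 7.27 and 1.43 in Scx- against 9976, 9662 and 8479 in Control, so that it fell by 10.29 ± 1.29 (adjusted p = 5.33e-06). Aqp4, the water channel of fast fibres, fell by 8.13 ± 0.85, the myosin kinase gene Mylk4 by 7.84 ± 1.07, the potassium channel gene Kcng4 by 7.29 ± 0.82 and Pvalb, the calcium buffer of fast fibres, fell by 7.06 ± 1.49. Crip3 and Lrrc38 changed by -7.79 and -7.49 on the log2 scale, and the musclin gene Ostn by -7.28. Clec3a, a lectin gene of cartilage, fell by 7.19 ± 1.37 and Chad, which encodes chondroadherin, by 7.10 ± 0.93. Dynlt1c and Snurf were listed at 0 in all 4 Scx- libraries, against 1544, 1242 and 1232 for Dynlt1c and 908, 876 and 889 for Snurf in Control. Dynlt1c has near-identical copies and Snurf shares its locus with Snrpn, so how their reads were assigned is uncertain. With the muscle list as a covariate, Odf3l2, Aqp4, Clec3a, Chad, Crip3 and Kcng4 were still among the 8 largest falls, at -9.47 to -6.61.

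**Figure D2:**
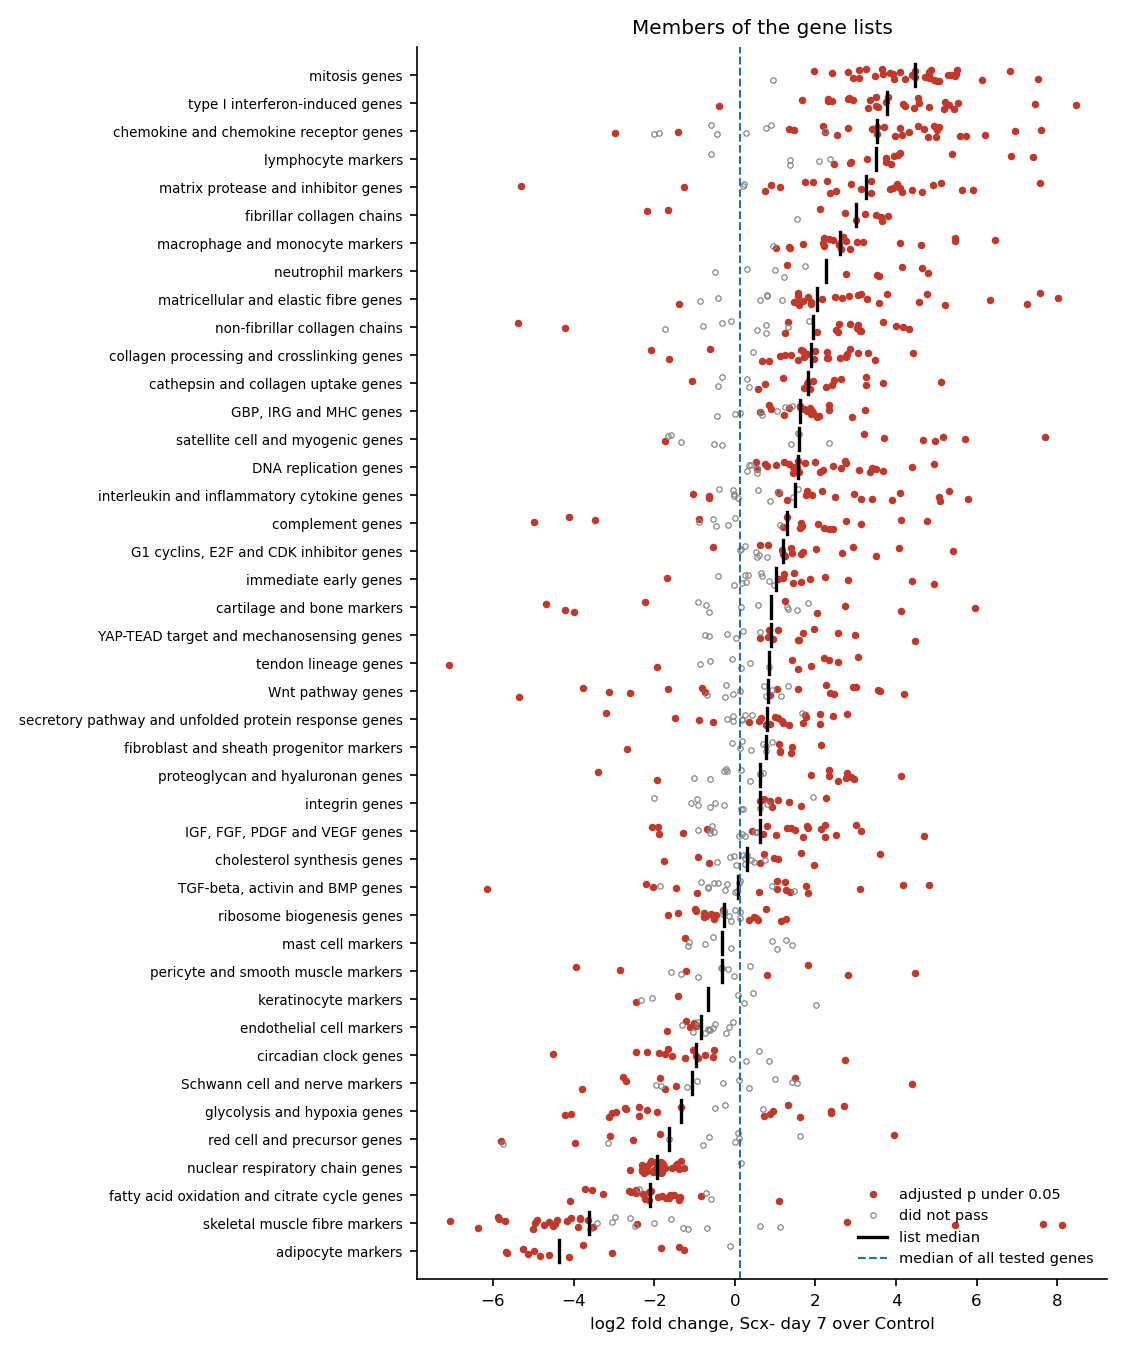
Log2 fold change of every tested member of 43 gene lists (x axis, Scx- day 7 over Control, 4 and 3 libraries), with lists ordered by their median. Filled points passed at an adjusted p under 0.05, open points did not, black bars are list medians and the dashed line is the median of all tested genes (0.14). Mitosis and interferon-induced genes sit highest and adipocyte and muscle fibre markers lowest.

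The 43 lists, drawn up from textbook knowledge, named 980 genes, of which 970 were in the files and 953 were tested. Tendon lineage genes did not move together. Of 15 tested, 7 rose and 2 fell, with a median log2 fold change of 0.85. Tnmd (chromosome X, 133850980 to 133865577, plus strand), the gene of tenomodulin, a membrane glycoprotein of mature tendon cells, had 2198, 1039, 2435 and 1443 in Scx- against 3052, 1274 and 886 in Control. These ranges overlap, and the difference of 0.16 ± 0.67 did not pass (adjusted p = 0.854). The homeobox gene Mkx, a tendon regulator, had 635, 413, 985 and 594 in Scx- against 310, 210 and 139 in Control, without overlap, and rose by 1.58 ± 0.45 (adjusted p = 0.00592). Col14a1, which encodes a collagen on the fibril surface, rose by 3.06 ± 0.42, the proteoglycan gene Bgn by 2.57 ± 0.27 and the tropomyosin gene Tpm4 by 2.33 ± 0.31. Thbs4, a thrombospondin gene of tendon matrix, chosen after its values were seen, rose by 1.89 ± 0.44 (adjusted p = 0.00135).

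The falls in this list were Chad and Fmod. Chad (chromosome 11, 94565047 to 94569127, plus strand) had 594, 132, 160 and 118 in Scx- against 53200, 26675 and 14206 in Control. Fmod, which encodes fibromodulin, a proteoglycan that controls the width of collagen fibrils, had 30303, 6825, 9323 and 7845 in Scx- against 99449, 33362 and 22236 in Control. Scx- replicate 1 overlapped the Control range for Fmod, whose fall of 1.92 ± 0.60 (adjusted p = 0.0112) lost its call when libraries were scaled to totals (-1.22, adjusted p = 0.0962) or without Control replicate 1. Chad and Clec3a had fallen by more than 7 log2 units, with Scx- replicate 1 the highest of the 4 for each gene.

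Fibrillar collagen genes, which build the load-bearing fibrils, rose in every Scx- library. They took 10.4%, 6.78%, 8.44% and 7.42% of the signal in Scx- and 0.780%, 0.396% and 0.329% in Control. Of 11 chains, 8 rose and 2 fell (median 3.01). Col1a1 (chromosome 11, 94936224 to 94953042, plus strand), the main chain of type I collagen, had 1335310, 897347, 1146930 and 871379 in Scx- against 132385, 78027 and 56310 in Control, a log2 fold change of 3.65 ± 0.45 (adjusted p = 3.88e-06). Col1a2 rose by 3.01 ± 0.45, Col3a1, a collagen of young matrix, by 3.64 ± 0.45, and Col5a1 and Col5a2, which start fibrils, by 3.79 ± 0.41 and 3.51 ± 0.39. Of 26 non-fibrillar chains 15 rose and 2 fell (median 1.94). Col8a1, a short-chain collagen, rose by 4.31 ± 0.53, while Col22a1, the collagen of the muscle-tendon junction, had 511, 534, 977 and 41.3 in Scx- against 14552, 12346 and 14329 in Control and fell by 5.38 ± 0.999. Col9a1, a collagen of cartilage, fell by 4.21 ± 0.69.

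Genes that modify and crosslink collagen rose with the chains, 24 of 28, and 3 fell (median 1.88). Lox, which encodes the lysyl oxidase that starts crosslinks, had 68446, 124383, 61898 and 103561 in Scx- against 8649, 2971 and 2539 in Control and rose by 4.42 ± 0.41 (adjusted p = 2.32e-07). Loxl1 and Loxl2, its relatives, rose by 3.31 ± 0.29 and 3.06 ± 0.46, and P4ha3, a prolyl hydroxylase gene, by 3.47 ± 0.26. P3h2, which encodes another collagen prolyl hydroxylase, fell by 1.63 ± 0.43 (adjusted p = 0.00365), a call that ended with scaling to totals (-0.93, adjusted p = 0.0769).

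Matricellular genes, whose products steer cells in remodelling tissue, gave some of the largest and most even changes. Of 32 tested (37 listed), 25 rose and 1 fell (median 2.04). Postn (chromosome 3, 54361109 to 54391037, plus strand), which encodes periostin, had 394803, 376216, 353001 and 594877 in Scx- against 3532, 2035 and 2938 in Control, a log2 fold change of 7.25 ± 0.35 (adjusted p = 2.72e-10). Cthrc1, a secreted protein gene of wound fibroblasts, had 14828, 18662, 17079 and 40420 in Scx- against 107, 72.8 and 161 in Control and rose by 7.57 ± 0.43. Replicate 4 was the highest Scx- library for both genes, and all 4 Scx- libraries lay far above Control. Wisp1, a CCN family gene, rose by 6.33 ± 0.42. The single fall was that of the tenascin gene Tnxb, by 1.39 ± 0.50, a call that did not hold with scaling to totals (adjusted p = 0.251) or without Control replicate 1 or Scx- replicate 1.

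Matrix proteases and their inhibitors rose as well, 24 of 28, with 2 falls (median 3.26). Adam12, a metalloprotease gene of growing connective tissue and fusing muscle, had 11593, 13361, 12700 and 13486 in Scx- against 43.1, 124 and 51.8 in Control and rose by 7.57 ± 0.38 (adjusted p = 6.28e-10). The collagenase gene Mmp13 rose by 5.91 ± 0.98 and the macrophage elastase gene Mmp12 by 5.65 ± 1.14, with spreads of 399 to 5610 and 304 to 4233 between Scx- libraries. Timp4, a protease inhibitor gene, fell by 5.32 ± 1.28. Of 21 proteoglycan and hyaluronan genes, 9 rose and 2 fell (median 0.63). Acan, the large proteoglycan of cartilage and compressed tendon, had 15510, 1157, 4003 and 4928 in Scx- against 735, 213 and 93.5 in Control and rose by 4.13 ± 0.82, Lum by 2.95 ± 0.65 and Aspn by 2.88 ± 0.40. The hyaluronan synthase gene Has3 fell by 3.39 ± 0.51. The matrix lists moved less than 0.5 log2 units in their medians with the muscle list as a covariate, at 2.58 for fibrillar chains, 2.05 for other chains, 1.56 for processing, 1.92 for matricellular genes, 3.13 for proteases and 0.42 for proteoglycans.

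**Figure D3:**
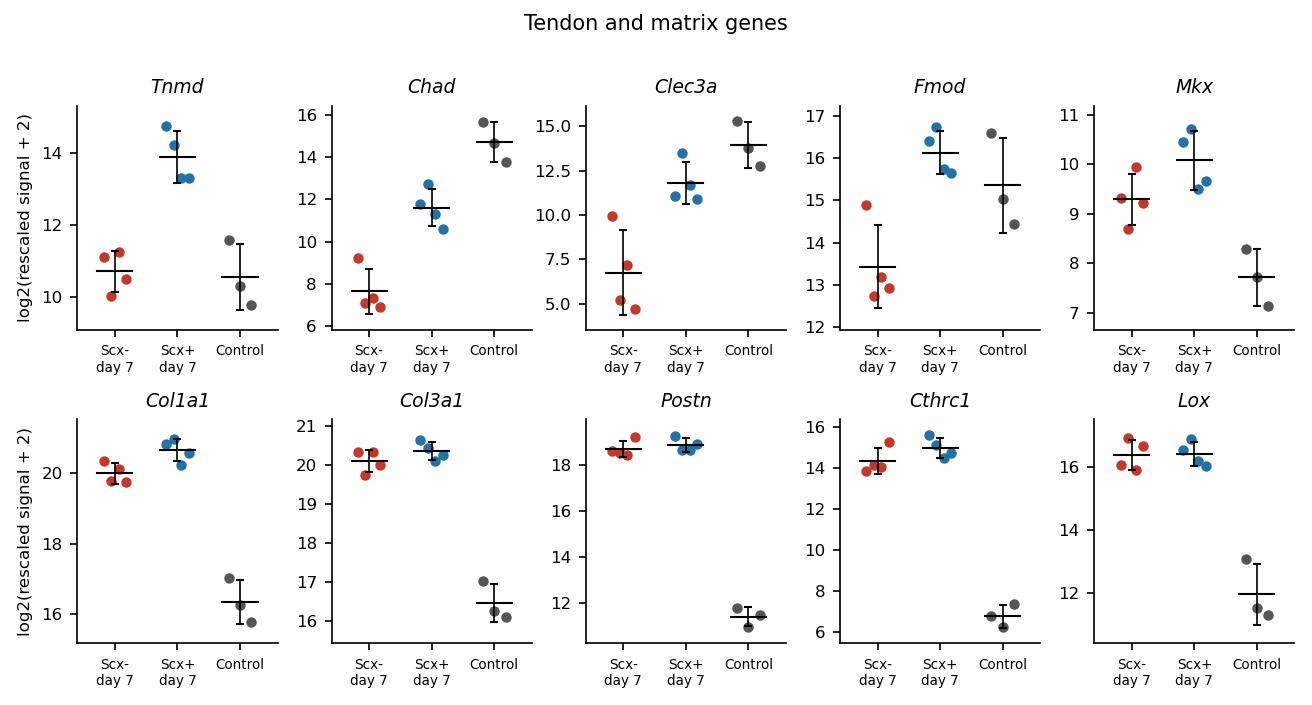
Log2 of the rescaled signal plus 2 for 10 tendon and matrix genes in Scx- day 7 (red, 4 libraries), Scx+ day 7 (blue, 4 libraries) and Control (grey, 3 libraries), each panel with its own axis. Points are libraries, bars the mean and SD. Tnmd, Chad, Clec3a and Fmod lie lower in Scx- than in Scx+ at day 7, while Col1a1, Col3a1, Postn, Cthrc1 and Lox lie well above Control in both stimulated groups.

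Signalling lists were mixed. Of all genes 32.3% rose and 25.9% fell. The rises in the TGF-beta (36.7%), Wnt (39.3%) and integrin (40%) lists were not far above the first share. The Wnt falls (25%) were near the second. Of 30 TGF-beta, activin and BMP genes 11 rose and 5 fell (median 0.08, and -0.02 without Scx- replicate 1). Mstn, the myostatin gene of muscle, had 124, 184, 273 and 25.5 in Scx- against 5005, 10463 and 10751 in Control and fell by 6.16 ± 0.74, while the stress cytokine gene Gdf15 rose by 4.17 ± 1.16 and Fstl1, a secreted binding protein gene, by 3.10 ± 0.32. Of 32 IGF, FGF, PDGF and VEGF genes 17 rose and 5 fell (median 0.62), with rises of 3.001 ± 0.45 for Hgf, the ligand that wakes satellite cells, and 2.51 ± 0.30 for Igfbp4. Of 28 tested Wnt genes (29 listed) 11 rose and 7 fell (median 0.83). The ligand gene Wnt4 fell by 5.35 ± 0.92 and the Wnt inhibitor gene Wif1 by 3.76 ± 0.86, while another inhibitor gene, Sfrp1, rose by 3.602 ± 0.41. Of 18 YAP-TEAD targets and mechanosensing genes tested (20 listed), 12 rose and 0 fell (median 0.90). Tead2, a DNA partner of YAP, had 634, 512, 636 and 657 in Scx- against 61.4, 104 and 67.4 in Control and rose by 2.97 ± 0.29, and the stretch channel gene Piezo2 rose by 2.56 ± 0.48. Ankrd1, a YAP target and stress gene of muscle, rose by 4.48 ± 1.56 (adjusted p = 0.0219), but did not pass without Control replicate 1 or 2 or Scx- replicate 2 or 3 (adjusted p up to 0.0739). Of 20 integrin genes 8 rose and 0 fell (median 0.62), among them Itga5, the fibronectin receptor chain, by 1.65 ± 0.20 and the leukocyte integrin gene Itgb7 by 2.26 ± 0.34.

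Genes of cell division were low in Control and rose in every Scx- library. Of 35 mitosis genes, 34 rose and 0 fell (median 4.47). Aurkb (chromosome 11, 69045647 to 69051664), a kinase of chromosome segregation, had 527, 572, 558 and 852 in Scx- against 0, 1.03 and 4.32 in Control, a log2 fold change of 7.52 ± 0.58 (adjusted p = 3.62e-08). Nuf2 and Knl1, parts of the kinetochore, rose by 6.82 ± 0.69 and 5.53 ± 0.86, and Ccnb2, a mitotic cyclin, had 860, 787, 746 and 1463 in Scx- against 9.20, 4.70 and 28.4 in Control and rose by 6.14 ± 0.77. Mki67, the common proliferation marker, chosen after its values were seen, rose by 4.81 ± 0.76. Replicate 4 was the highest Scx- library for each of Aurkb, Nuf2, Ccnb2 and Mki67. Of 33 DNA replication genes, 28 rose and 0 fell (median 1.57), among them Rrm2, a subunit of the enzyme that makes deoxynucleotides, by 4.96 ± 0.42 and the origin recognition gene Orc1 by 4.39 ± 0.56. With the muscle covariate the medians were 4.04 for mitosis and 1.39 for replication. Of 23 genes of G1 cyclins, E2F factors and CDK inhibitors, 15 rose and 1 fell (median 1.19). E2f8, a repressor of late S phase, rose by 5.42 ± 0.70, Ccne1, the S phase entry cyclin, by 3.50 ± 0.46, and the inhibitor gene Cdkn2a by 4.09 ± 0.57. The fall of Cdkn2c, by 0.54 ± 0.19 (adjusted p = 0.0203), turned to 0.16 when libraries were scaled to totals and was lost without Control replicate 3 or Scx- replicate 2.

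The promoter of Ccnb2 is shown because mitotic genes are known to share the cell cycle homology region, whose core is TTTGAA. These 300 bases run from 250 before to 50 after the RefSeq gene start (chr9:70421505-70421804, minus strand, GRCm38.p6), with matches in capitals.
Ccnb2: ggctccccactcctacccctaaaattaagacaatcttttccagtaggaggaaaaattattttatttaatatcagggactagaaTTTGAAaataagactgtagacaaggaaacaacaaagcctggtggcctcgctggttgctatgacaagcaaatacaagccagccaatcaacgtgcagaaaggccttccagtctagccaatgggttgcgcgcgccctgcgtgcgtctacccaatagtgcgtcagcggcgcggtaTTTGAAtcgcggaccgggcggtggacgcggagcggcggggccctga
Either strand of the window held TTTGAA in 21 of the 28 mitosis genes with a RefSeq promoter entry (75.0%), in 4 of 27 DNA replication genes (14.8%) and in 20.2% of all 27025 genes. A match is a description of these letters only.

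Genes of the secretory pathway rose in part. Of 30 with those of the unfolded protein response, 18 rose and 4 fell (median 0.80). Kdelr3, a receptor that returns chaperones to the endoplasmic reticulum, rose by 2.78 ± 0.27, and Sec24d, a coat subunit of the vesicles that carry procollagen, had 7285, 7024, 7241 and 7260 in Scx- against 1749, 1100 and 1186 in Control and rose by 2.45 ± 0.29. Chac1, a stress gene that degrades glutathione, fell by 3.19 ± 0.66. Of 26 ribosome biogenesis genes 7 rose and 11 fell (median -0.26), but the direction of this list flips with scaling to totals, to 15 rises, 0 falls and a median of 0.43. Npm1, which encodes nucleophosmin, rose by 1.27 ± 0.21, and Polr1a, the large subunit of RNA polymerase I, fell by 1.42 ± 0.36 (-0.72 and adjusted p = 0.0535 with scaling to totals).

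Type I interferon-induced genes were higher in Scx- almost without exception. They took 0.145%, 0.387%, 0.240% and 0.176% of the signal in Scx- and 0.0200%, 0.0154% and 0.0159% in Control. Of 28 genes, 27 rose and 1 fell (median 3.78, and 4.13 with the muscle covariate). Mx1, a GTPase that blocks viral nucleoproteins, had 1384, 8618, 2806 and 1732 in Scx- against 72.5, 7.91 and 3.24 in Control and rose by 7.46 ± 0.79 (adjusted p = 1.03e-06). Ifit1 (chromosome 19, 34640871 to 34650009, plus strand), which encodes a sensor of foreign RNA caps, had 3035, 9381, 5310 and 2274 in Scx- against 80.9, 113 and 102 in Control and rose by 5.43 ± 0.53. Ifit3 (chromosome 19, 34583531 to 34588731, plus strand), its binding partner, had 5081, 17658, 8904 and 4716 in Scx- against 270, 472 and 359 in Control and rose by 4.45 ± 0.45, though reads may be shared with Ifit3b. For each of Oas3, Mx1, Ifit1 and Ifit3, Scx- replicate 2 was the highest library and replicate 3 the next. Usp18, the brake on interferon receptor signalling, rose by 3.75 ± 0.44 and Ifi44 by 4.83 ± 0.52. The fall was that of Ifi27, by 0.40 ± 0.15 (adjusted p = 0.0339), chosen as the exception after its values were seen. It turned to 0.30 with scaling to totals, and its call ended without Control replicate 1 or Scx- replicate 1, 2 or 4 (adjusted p up to 0.178).

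The promoters of Oas3, Ifit1 and Ifit3 are shown because interferon-induced genes are bound at the interferon-stimulated response element, searched here as GAAA, any 2 bases and GAAA again. The windows are again 250 bases before to 50 after the gene start, from RefSeq (GRCm38.p6): chr5:120777610-120777909 on the minus strand for Oas3, chr19:34640639-34640938 on the plus strand for Ifit1 and chr19:34583279-34583578 on the plus strand for Ifit3. Capitals mark matches on either strand, so a match on the opposite strand reads TTTC, any 2 bases, TTTC.
Oas3: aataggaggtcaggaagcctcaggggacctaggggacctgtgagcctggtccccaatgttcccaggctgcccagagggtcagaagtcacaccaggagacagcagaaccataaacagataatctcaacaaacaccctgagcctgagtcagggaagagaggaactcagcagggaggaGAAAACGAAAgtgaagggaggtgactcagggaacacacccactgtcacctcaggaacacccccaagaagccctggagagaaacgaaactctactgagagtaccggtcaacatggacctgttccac
Ifit1: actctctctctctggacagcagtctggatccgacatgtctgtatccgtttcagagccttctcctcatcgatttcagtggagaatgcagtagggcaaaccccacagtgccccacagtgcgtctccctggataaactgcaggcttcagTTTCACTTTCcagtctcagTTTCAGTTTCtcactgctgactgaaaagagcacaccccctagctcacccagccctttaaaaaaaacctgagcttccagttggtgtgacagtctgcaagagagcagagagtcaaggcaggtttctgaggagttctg
Ifit3: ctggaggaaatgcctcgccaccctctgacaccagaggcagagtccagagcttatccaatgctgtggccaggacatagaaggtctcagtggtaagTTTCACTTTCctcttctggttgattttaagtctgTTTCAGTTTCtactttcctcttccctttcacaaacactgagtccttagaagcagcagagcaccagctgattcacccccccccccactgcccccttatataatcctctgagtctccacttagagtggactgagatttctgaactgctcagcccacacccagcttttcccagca
Oas3 held 1 match, starting at base -75 from the gene start, while Ifit1 and Ifit3 each held 2, the first at bases -104 and -156. The motif was found in 12 of the 20 interferon list genes with a promoter entry (60.0%), in 9 of 20 genes of the GBP, IRG and MHC list (45.0%), in 2 of 28 mitosis genes (7.14%), in 0 of 30 muscle fibre genes and in 3.99% of all 27025 genes.

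Genes that interferon gamma also induces moved less. Of 27 guanylate-binding protein, immunity-related GTPase and MHC genes, 19 rose and 0 fell (median 1.62). Tap1, which loads peptides for MHC class I, had 2265, 4824, 3596 and 3064 in Scx- against 287, 474 and 310 in Control and rose by 3.24 ± 0.24 (adjusted p = 2.20e-08), Gbp3 rose by 2.90 ± 0.33 and B2m, the light chain of MHC class I, by 2.35 ± 0.26. The GTPase gene Igtp was different, with 1523, 4017, 2573 and 1245 in Scx- against 1920, 2337 and 2066 in Control and a difference of 0.00 ± 0.39 (adjusted p = 0.997). The Scx- libraries lay on both sides of the Control range for this gene.

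Against Scx+ mice at the same day, which had the same stimulus and also tamoxifen, 128 of 16625 genes (0.770%) passed, 72 higher in Scx- (0.433%). Of the 28 interferon-induced genes 18 were among the higher ones (median 1.751), and of the 27 GBP, IRG and MHC genes 10 (median 0.83). Ifit1 had 328, 625, 429 and 1329 in the Scx+ day 7 libraries, all below the lowest Scx- day 7 library, and the difference was 2.88 ± 0.49 (SE, n = 4 each; adjusted p = 0.00744). Igtp differed by 1.88 ± 0.36 and averaged 2339 ± 1256 in Scx- day 7, 618 ± 298 in Scx+ day 7 and 2108 ± 212 in Control (SD, n = 4, 4 and 3). Its level in Scx- at day 7 was thus near Control and that in Scx+ below it. The calls of Ifit1, Ifit3 and Usp18 ended in a fit of these groups alone (adjusted p = 0.0748 to 0.0875), and that of Igtp also on leaving out Scx+ replicate 1 or 2, or replicate 2 or 3 of Scx- (up to 0.127).

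In Scx- mice at day 14 the interferon genes were lower than at day 7. Of all genes 641 (3.86%) were lower at day 14, and of the interferon list 27 of 28 (median -2.97). Oas3 averaged 53.6 ± 25.4 at day 14 and 1643 ± 1144 at day 7 (SD, n = 4 each; log2 difference -4.74, adjusted p = 0.000119). Mx1 averaged 69.5 ± 19.8 at day 14 and 3635 ± 3377 at day 7, and Cxcl10, a chemokine gene that interferon induces, 32.4 ± 15.6 at day 14 and 2647 ± 2679 at day 7. Of the GBP, IRG and MHC genes 16 of 27 were lower at day 14 (median -1.19). Macrophage markers moved with them, with 14 of 24 genes lower at day 14 (median -1.38), as did 4 of 18 lymphocyte genes (median -1.36). Other leukocyte lists did not, as 1 of 12 neutrophil genes (median 0.34) and 0 of 10 mast cell genes (median 0.25) were lower. The muscle list took 13.7% ± 9.70 of the signal at day 14 and 4.23% ± 3.20 at day 7 (SD, n = 4 each). The part of these markers in the interferon values was not tested. The count of all genes that differed between these days, 873 (5.25%), was 2604 on the scale as deposited and 370 to 1481 when 1 library was left out.

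**Figure D4:**
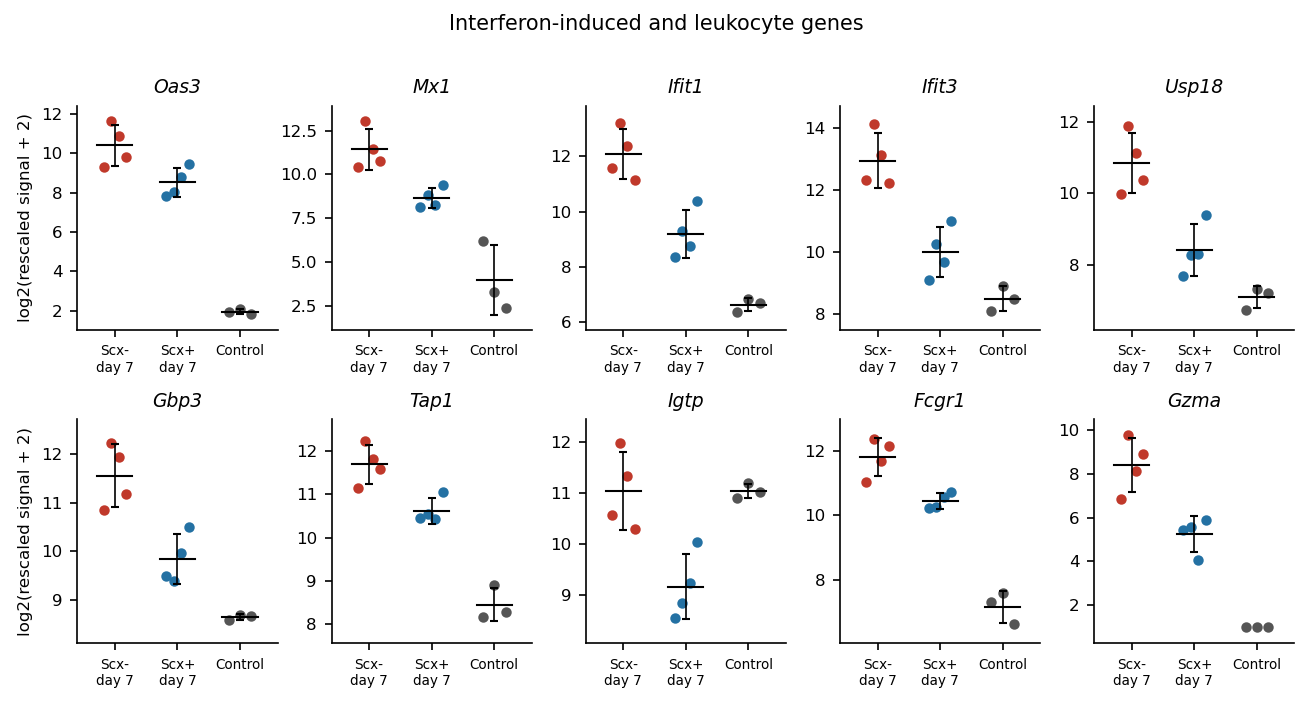
Log2 of the rescaled signal plus 2 for 10 interferon-induced and leukocyte genes in Scx- day 7 (red, 4 libraries), Scx+ day 7 (blue, 4 libraries) and Control (grey, 3 libraries), with the mean and SD where no library is listed at 0. Every Scx- library lies above every Scx+ library for each of the 10 genes except Oas3, and Igtp is the gene whose Scx- libraries overlap Control.

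Leukocyte markers rose with these genes. Of 24 macrophage and monocyte genes 23 rose and 0 fell (median 2.62), and the list took 0.414%, 0.633%, 0.431% and 0.986% of the signal in Scx- against 0.0692%, 0.0467% and 0.107% in Control. Adgre1, which encodes a surface receptor of macrophages, chosen after its values were seen, had 4044, 6492, 5502 and 11411 in Scx- against 663, 664 and 1561 in Control and rose by 2.85 ± 0.34. Ly6c2, a marker of inflammatory monocytes, rose by 6.46 ± 0.65, the arginase gene Arg1 by 5.47 ± 1.16 and Fcgr1, the high-affinity IgG receptor, by 4.62 ± 0.32. Of 12 tested neutrophil genes (16 listed) 7 rose and 0 fell (median 2.26), among them the growth factor receptor gene Csf3r by 4.79 ± 0.38. In Control replicates 1 to 3, 10, 7 and 7 of the 16 were at 0. The median ran from 1.225 (pseudocount 10) to 3.03 (pseudocount 1), with 4 to 8 rises across alternatives, filters included. Of 18 tested lymphocyte genes (20 listed) 13 rose and 0 fell (median 3.51). This list was also near the floor, with 10, 11 and 10 of the 18 at 0 in Control replicates 1 to 3. Its median ran from 1.99 (pseudocount 10) to 4.75 (mean of at least 1 ppm), with 6 to 15 rises across alternatives, filters included. Gzma, the granzyme of cytotoxic lymphocytes, was listed at 0 in Control and had 114, 866, 279 and 471 in Scx-, and the cytokine receptor gene Il7r rose by 5.40 ± 0.49. Mast cell genes differed little, with 0 rises and 1 fall among 10 tested (median -0.32, and 0.28 without Scx- replicate 3). Replicate 4 had the largest macrophage share and replicate 2 the largest interferon and lymphocyte shares. The part of these cells in the interferon values was not tested.

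Chemokines and cytokines followed. Of 36 chemokine and receptor genes 26 rose and 2 fell (median 3.53). Cxcl10, which draws activated T cells, had 1372, 6528, 2192 and 495 in Scx- against 3.27, 2.996 and 26.2 in Control and rose by 7.61 ± 0.90, Ccl7, which draws monocytes, by 6.20 ± 0.62 and Cxcl5, which draws neutrophils, by 6.95 ± 0.98. Ccl19, a chemokine of lymph vessels and stroma, had 77.7, 124, 5.40 and 89.1 in Scx- against 267, 367 and 645 in Control and fell by 2.97 ± 0.79. Of 30 tested cytokine genes 17 rose and 3 fell (median 1.497), among them Il1rl1, the interleukin-33 receptor, by 5.80 ± 0.97, Il1b by 5.09 ± 1.09 and the anti-inflammatory gene Il10 by 5.07 ± 0.71. Tnfsf11, which encodes the osteoclast factor RANKL, was listed at 0 in Control and had 175, 31.0, 110 and 59.6 in Scx-. Of 23 complement genes 13 rose and 4 fell (median 1.29). Cfd, the complement factor made by fat cells, fell by 4.98 ± 1.11, Clu, which encodes clusterin, by 4.11 ± 0.53, and Cfb, of the alternative pathway, rose by 1.64 ± 0.18. Of 21 cathepsin and collagen uptake genes 16 rose and 1 fell (median 1.81), led among macrophage proteases by Ctss at 3.67 ± 0.34, with the lysosomal glycoprotein gene Gpnmb at 3.27 ± 0.49.

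Most muscle fibre genes that passed fell, and a few rose. Of 38 muscle fibre genes 21 fell and 4 rose (median -3.61, and -0.96 with the list's own mean as a covariate). Myh4, the fastest myosin heavy chain, had 112097, 130878, 100951 and 8900 in Scx- against 3904820, 6905190 and 4736780 in Control and fell by 6.38 ± 1.30 (adjusted p = 0.000634). Pvalb (chromosome 15, 78191114 to 78206400) had 5968, 4031, 25100 and 1054 in Scx- against 627096, 718563 and 672452 in Control. Another 13 did not pass. The rises were those of Tnni1, Tnnc1 and Tnnt1, the troponin genes of slow fibres, and the slow calsequestrin gene Casq2. Tnni1 (chromosome 1, 135779434 to 135810989) had 5375, 10841, 11805 and 1823 in Scx- against 7.41, 19.05 and 47.7 in Control, and Tnnt1 rose by 5.46 ± 1.18. So genes of one tissue moved in opposite directions within the same libraries, and replicate 4 was the lowest Scx- library for both kinds. Casq2, at 2.78 ± 1.12 (adjusted p = 0.0445), passed in 13 of 20 alternatives, and lost its call with sample quality weights and without any one of Control replicates 1 and 2 and Scx- replicates 1 to 3 (adjusted p up to 0.115). The slow myosin gene Myh7, chosen after its values were seen, did not pass, at 1.12 ± 1.79 (adjusted p = 0.608).

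Myogenic genes, which mark muscle stem cells and forming fibres, rose in 7 of 17 tested cases (18 listed) and fell in 1 (median 1.596). Myh3, the embryonic myosin heavy chain, had 13054, 30041, 27671 and 3386 in Scx- against 188, 183 and 520 in Control and rose by 5.71 ± 1.595 (adjusted p = 0.00632). Chrna1, a subunit of the muscle acetylcholine receptor, rose by 5.18 ± 1.40 and Mymk, which encodes the fusion protein myomaker, had 1199, 2741, 1522 and 372 in Scx- against 26.4, 35.1 and 46.8 in Control and rose by 4.98 ± 1.27. Tnnt2, the cardiac troponin T gene that embryonic muscle also uses, and Igfn1 rose by 7.24 ± 1.11 and 6.52 ± 1.40. The muscle regulators Myod1 and Myog, chosen after their values were seen, did not pass, at -0.52 ± 1.17 (adjusted p = 0.720) and 2.33 ± 1.14 (adjusted p = 0.0911). Myog had 1327, 2206, 1833 and 478 in Scx- against 147, 229 and 465 in Control, without overlap. With the muscle covariate 14 of the 17 myogenic genes were higher (median 3.09), against 4652 of all 16625 tested genes. Myod1 turned to 1.45 and Myog to 4.02. The muscle list took 0.529% to 8.19% of the signal in Scx- and 29.2% to 34.95% in Control, without overlap. This fit therefore cannot separate muscle content from group, for genes that muscle expresses or for other genes.

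**Figure D5:**
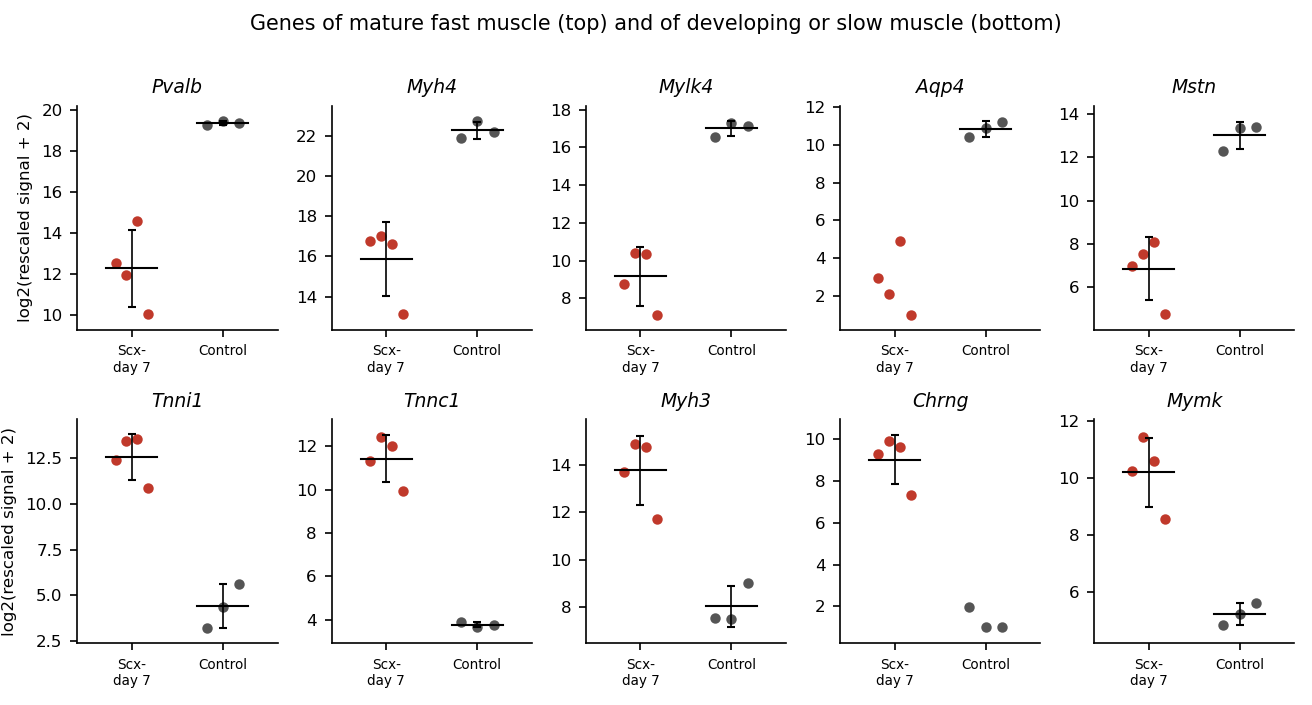
Log2 of the rescaled signal plus 2 for 5 genes of mature fast muscle (top row) and 5 of slow or developing muscle (bottom row) in Scx- day 7 (red, 4 libraries) and Control (grey, 3 libraries), with the mean and SD where no library is listed at 0. The top genes are lower and the bottom genes higher in every Scx- library, and the Scx- library with the lowest value is replicate 4 in all 10 panels.

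Genes of mitochondrial energy metabolism, abundant in muscle, were mostly lower, while glycolysis genes moved both ways. Of 34 nuclear genes of the respiratory chain 33 fell and 0 rose (median -1.94, and -1.62 with the muscle covariate). Cox5a, of complex IV, had 3578, 5252, 5913 and 3574 in Scx- against 19334, 21281 and 25445 in Control and fell by 2.29 ± 0.36. Of 26 genes of fatty acid oxidation and the citrate cycle 22 fell and 1 rose (median -2.10, and -1.54 with the covariate). Cpt1b, the muscle gate for fatty acids into mitochondria, fell by 4.09 ± 0.86, and the mitochondrial regulator gene Ppargc1a fell by 3.54 ± 0.87. The rise was that of Cpt1a, the form of that gate in liver and most other cells, by 1.10 ± 0.23, with 3208, 4023, 2123 and 4803 in Scx- against 1548, 1321 and 1910 in Control. Of 23 tested glycolysis and hypoxia genes 12 fell and 8 rose (median -1.34), with falls of 4.21 ± 1.03 for Pfkm and 4.06 ± 0.76 for Aldoa, the muscle forms, and of 3.13 ± 0.68 for Hk2. The muscle share of the signal moved with these lists. Its part in them was not tested, since the covariate fit cannot separate it from group.

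Fat cell markers fell as well. Of 14 tested (15 listed) 13 fell and 0 rose (median -4.36, and -4.47 with the muscle covariate), at 0.0408% to 0.1001% of the signal in Scx- against 0.285% to 0.372% in Control. Retn, which encodes resistin, had 369, 434, 1.08 and 244 in Scx- against 4526, 5046 and 6910 in Control and fell by 5.68 ± 1.33, the leptin gene Lep by 5.65 ± 1.15 and the lipid droplet gene Cidec by 5.12 ± 1.33. Replicate 3 was the lowest Scx- library for each. Clock genes also lay lower, with 14 of 19 falling and 1 rising (median -0.96), but with scaling to totals 5 fell and 4 rose (median -0.26). The output factors Hlf and Tef fell by 2.46 ± 0.41 and 2.19 ± 0.33, while the activator gene Npas2 rose by 2.74 ± 0.56. The time of day of sampling is not given in the labels. Of 22 immediate early genes 11 rose and 1 fell (median 1.02), among them Fosl1, an AP-1 subunit, by 4.95 ± 0.72 and the zinc finger gene Egr2 by 4.39 ± 0.90. Of 21 cholesterol synthesis genes 7 rose (33.3%, against 32.3% of all genes) and 3 fell (median 0.30). Fdft1, the squalene synthase gene, fell by 1.77 ± 0.41.

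Vessel, nerve and other markers changed in fewer members. Over all genes 32.3% rose and 25.9% fell. The endothelial falls (27.8%) lay near the second share. Pericyte and smooth muscle genes (26.7% rose, 20% fell) and cartilage and bone genes (27.8% and 22.2%) lay near both. Of 18 endothelial genes 5 fell and 0 rose (median -0.83), and with scaling to totals 1 fell (median -0.13). The VEGF receptor gene Flt1 fell by 1.69 ± 0.41, and the fall of the phosphatase gene Ptprb, by 1.22 ± 0.41, lost its call with scaling to totals (adjusted p = 0.295), with the muscle covariate, and without Control replicate 1 or Scx- replicate 4. Of 15 pericyte and smooth muscle genes 4 rose and 3 fell, and their median of -0.33 turned to 0.37 with scaling to totals. Acta2, the actin of smooth muscle and myofibroblasts, had 13341, 20960, 11489 and 32532 in Scx- against 2900, 2444 and 2391 in Control and rose by 2.81 ± 0.38, Cnn1 rose by 4.47 ± 0.99, and Lmod1 fell by 3.95 ± 0.58. Of 15 fibroblast and sheath progenitor genes 6 rose and 1 fell (median 0.79). The growth factor receptor gene Pdgfra rose by 1.40 ± 0.31 and the stromal gene Cd248 by 2.15 ± 0.33, while Tppp3, a marker of sheath progenitors, had 2231, 1825, 2572 and 2921 in Scx- against 14430, 12005 and 19789 in Control and fell by 2.68 ± 0.48. Of 18 Schwann cell and nerve genes 6 fell and 2 rose (median -1.06). Of 18 tested cartilage and bone genes (20 listed) 5 rose and 4 fell (median 0.91), the mineral-binding gene Ibsp by 4.68 ± 1.18 among the falls. Keratinocyte genes were low, with 2 falls among 8 tested (median -0.67, and 0.08 with no filter).

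Red cell genes were lower in Scx- than in Control. Of 15 tested (18 listed) 5 fell (33.3%, against 25.9% of all genes) and 1 rose (median -1.63). The globin gene Hbb-b1 had 1658, 129, 6015 and 602 in Scx- against 13997, 11723 and 19806 in Control and fell by 3.97 ± 1.13, with uncertain assignment between globin copies, and Bpgm, a red cell enzyme gene, fell by 3.09 ± 0.34. Alas2, of haem synthesis in red cell precursors, fell by 2.52 ± 0.95 (adjusted p = 0.0323) and lost its call in 7 of 20 alternative settings, among them each left-out Control library. Against Scx+ at day 7, 9 of these 15 genes were lower (0.337% of all genes were), with Hbb-b1 at 143400, 581934, 257644 and 122816 in Scx+.

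Between the genotypes at day 7, 0.337% of all genes were lower in Scx- than in Scx+ and 0.433% were higher. Of the 15 tendon lineage genes 3 were lower in Scx- (Tnmd, Chad and Fmod), a larger share than over all genes. Few matrix genes differed. Of 28 collagen processing genes 1 was lower (P3h2, in 7 of 21 settings only), and of the collagen, matricellular and protease lists 0 were lower and 0 higher. Tnmd averaged 1779 ± 650 in Scx- day 7, 16761 ± 8441 in Scx+ day 7 and 1738 ± 1155 in Control (SD, n = 4, 4 and 3). Postn differed by -0.17 ± 0.32 between the genotypes at day 7 and Col3a1 by -0.26 ± 0.41, a small difference beside their distance from Control, although a p that misses the threshold does not show that the genotypes were alike. The calls of Chad and Fmod against Scx+ held in 12 and 13 of 21 settings. Both ended with the muscle covariate and when Scx+ replicate 1, 2 or 3 or replicate 2, 3 or 4 of Scx- was left out, that of Chad also with scaling to totals, and that of Fmod also in a fit of these groups alone. That of Tnmd ended when Scx+ replicate 1 or 2, or replicate 2 or 4 of Scx-, was left out.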

How the data were processed

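RNA sequencing of mouse plantaris tendon gave 19 libraries, of which 4 (Scx- day 7) and 3 (Control) were compared. Per the submitters' processing notes the authors used FastQC, STAR, DESeq2 and mm10. Versions are not given in the sources used here. The authors deposited 1 value per gene and library, a scaled signal that is not whole, so count models and depths in reads were not possible. The authors' deposited tables of comparisons, with log2 fold changes and p-values, were used only for their number of passed genes. The signal was rescaled between libraries by medians of ratios, taken over the 13703 genes above 0 in every library (factors 0.8383 to 1.091). Genes with at least 10 in at least 3 libraries were kept (16625 of 24972; 4029 were at 0 throughout). Log2(value + 2) was fitted with limma 3.58.1 (R 4.3.3; trend, robust) on all 5 groups at once, two-sided, with Benjamini-Hochberg adjustment over all tested genes and a threshold of 0.05. Fold changes on this scale understate low genes. The fit was tested on simulated data with normal noise and effects in a small part of the genes, up and down in equal number. That simulation did not test the scaling where more than every second gene differs. Tables and figures were made with Python 3.11.15, pandas 2.3.3 and matplotlib 3.10.9.

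The comparison, the gene lists and the rules were chosen with earlier results of these data known. Named genes were the scleraxis and collagen genes, the 12 largest rises and falls of at least 5 ppm without overlap, the 8 largest with the muscle covariate, up to 4 passed members per list, and list members that differed from Scx+ day 7. Some were left out for length or are not reported here, and others are marked as chosen after their values were seen. Alternatives were other scalings, filters and pseudocounts, sample quality weights, a replicate block, a muscle covariate, a fit of the compared groups alone and each library left out.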

Additional observations from a re-analysis of the deposited data

Results flagged for a closer look

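Among the 4 Scx- day 7 libraries, 1 stood far from the other 3 in 14 of 157 named genes and 4 of 43 list shares. Chance flags about 1 in 20 such groups if values are normally distributed, and the rule was applied here to values that were not logged. Replicate 1 was the highest for Clec3a (982.2 rescaled signal), Chad (594.5), Fmod (30300), Wif1 (542.2) and Ibsp (68.86). It also had the highest share of tendon lineage genes, 1.679% of the signal. Replicate 4 stood apart for Cthrc1 (40420), Tpm4 (34950), Mmp12 (4233), the CDK inhibitor gene Cdkn2a (131.6) and the division genes Aurkb (851.7), Nuf2 (1024) and Ccnb2 (1463), and for the share of secretory pathway genes (0.7599%). Replicate 2 stood apart for Tead2 (511.7) and Sec24d (7024), both within a narrow range. Replicate 3 stood apart in the shares of ribosome biogenesis genes (0.1418%) and keratinocyte genes (0.00304%).

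The distance from Control differed between Scx- and Scx+ at day 7 for 22 named genes, by the limma test of Scx- against Scx+ libraries. Among tendon and matrix genes the log2 difference was -8.609 for Scx, -3.977 for Chad, -3.179 for Tnmd, -2.698 for Fmod and -1.739 for P3h2. Among interferon-induced genes it was 2.941 for Ifit3, 2.876 for Ifit1, 2.496 for Ifi44, 2.487 for Slfn1, 2.427 for Usp18, 1.876 for Igtp, 1.714 for Gbp3 and 1.069 for Tap1. Leukocyte, ligand and complement genes differed by 3.168 for Gzma, 3.093 for Gdf3, 1.358 for Fcgr1, 0.9001 for Cfb, -1.386 for Cd59a and -2.103 for Acp5, which encodes an acid phosphatase of osteoclasts and macrophages. Red cell genes differed by -7.91 for Hbb-b1, -7.323 for Alas2 and -2.633 for Bpgm. Of these calls, those of Scx, Acp5, Alas2 and Hbb-b1 held in all 21 settings, and those of Bpgm, Cfb, Gdf3, Ifit1, Ifit3 and Usp18 in 20. The others were lost more often, many with the muscle covariate or with 1 library left out. Slfn1, Gbp3 and Tnmd passed in 17 settings, Igtp and Cd59a in 16, Ifi44 in 14, Fmod, Tap1 and Gzma in 13, Chad in 12, Fcgr1 in 10 and P3h2 in 7.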

How the results depend on the processing

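The count of 9677 genes against Control lay between 8313 and 10933 in all alternatives, and 8724 to 9381 with 1 library left out. Of 151 named genes that passed, 141 passed in every alternative that tested them, of 20 (19 for Il10). With scaling to totals Ifi27 turned to 0.30 and Cdkn2c to 0.16, and with the muscle covariate Myod1 turned to 1.45 (adjusted p = 0.0469). Scx- day 7 against Scx+ day 7 gave 478 genes with sample quality weights, 54 with the muscle covariate and 46 to 186 with 1 library left out (48, 46 and 74 without Scx+ replicates 1 to 3, 46 and 73 without Scx- replicates 2 and 3). Scx- day 14 against day 7 gave 2604 genes as deposited, 1349 with scaling to totals, 543 with the muscle covariate, 317 in a fit of these groups alone and 370 to 1481 with 1 library left out (370 and 380 without day 7 replicates 2 and 4, 427, 555 and 1481 without day 14 replicates 1, 2 and 4). The cause was not tested. Replicate numbers do not pair the samples by any label. Deviations of same-numbered libraries correlated at 0.0950, 0.0509 and 0.0668, each highest with its own number. Deviations were taken from the group mean, so the highest correlation of a library cannot be negative. These small values therefore cannot show whether samples were paired. With the replicate block 9074 genes passed against Control, Casq2 and Ifi27 not among them, and Chad did not pass against Scx+. The Scx level did not change its direction in its 9 alternatives. The number of reads is unknown, so what low values can resolve is not known.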
